A study of Mus musculus with 4 samples.

Results

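The transcripts followed here are 6 genes of the follicular helper T (Tfh) cell programme and of interleukin-21 (IL-21), out of the 33696 genes in the files. They are Bcl6, Il21, Il21r, Sh2d1a, Tox2 and Maf, and each was matched to a single identifier. The list was given by name with no threshold on any value, and it was drawn up with earlier results of these data known. Their unique molecular identifiers (UMIs) were counted in 4 single-cell libraries, within CD4 T, CD8 T, B and plasma cells that were set by marker genes.

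The libraries hold live CD45+ cells sorted from subcutaneous KPC tumors, a mouse pancreatic cancer line, in male C57BL/6NHsd mice aged 8 to 10 weeks. Untreated mice were compared with mice given ADU-S100, an agonist of the innate sensor STING, as 1 intratumoral injection of 2 µg. The anti-LTβR group received 4 injections of 100 µg of 4H8 into the peritoneum, an antibody that activates the lymphotoxin-β receptor, and the combination group received both agents. Tumors were resected on day 14 and 10 were pooled per group, so that each group has 1 library. Pooled tumors give no measure of the spread between mice. No difference between groups was therefore tested, and 95% intervals (exact Poisson for levels, exact binomial for ratios and shares) cover counting error only.

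Tfh cells are CD4 T cells that give help to B cells in follicles and germinal centers. BCL6 is the transcriptional repressor that defines their fate, c-MAF (Maf) and TOX2 are transcription factors of the programme, and SAP, encoded by Sh2d1a, is the adaptor through which SLAM family receptors hold T cells and B cells in contact. IL-21 is the cytokine Tfh cells are best known for. It acts through the receptor IL-21R with the common γ chain on B cells, plasma cell precursors, CD8 T cells and NK cells, largely by way of STAT3.

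The deposited matrices held between 8730 and 16322 cells per library with 52109958 to 85855398 UMIs, and 7776 to 15698 cells per library were kept. Any pair of libraries shared 34 to 83 cell barcodes. Sets of 4 values are given in the order untreated, ADU-S100, anti-LTβR and combination. CD4 T cells numbered 234, 98, 332 and 152, with median depths of 3454.5, 3714, 2886 and 2006 UMIs. CD8 T cells numbered 494, 199, 651 and 623, with median depths of 5056.5, 4726, 3661 and 2203 UMIs. The combination library was thus the shallowest in both classes. B cells numbered 6, 4, 82 and 176 and plasma cells 40, 34, 263 and 421, so that B cells can be described only in the anti-LTβR and combination libraries. In CD4 T cells the summed B cell markers stood at 0.894 to 5.65 CPM (UMIs per 1000000 UMIs of the class) and those of macrophages at 45.6 to 82.0 CPM, the latter highest in the combination library. T cell markers stood at 2709 to 3250 CPM in the same cells.

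The 6 genes were spread very differently over the leukocytes of the tumors. Il21 was the most restricted, Sh2d1a was read in T and NK cells, Tox2 in T and plasma cells, and Bcl6, Il21r and Maf in myeloid cells as well. Levels below are CPM of UMIs summed over the cells of a class, and they compare classes or groups for 1 gene, never 1 gene with another.

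Bcl6 was highest in dendritic cells, at 159 to 199 CPM over the 4 libraries. Neutrophils (91.5 to 134 CPM), macrophages or monocytes (79.2 to 109 CPM) and NK cells (74.5 to 87.2 CPM) came next, with ranges that overlapped between neighbors. CD4 T cells ranged from 29.9 to 79.5 CPM, other T cells (with both or neither of Cd4 and Cd8) from 51.3 to 58.7 CPM, B cells of the anti-LTβR and combination libraries stood at 50.8 and 46.4 CPM, and CD8 T cells from 15.6 to 39.1 CPM. Plasma cells were lowest, at 4.96 to 7.88 CPM.

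Maf was highest in CD4 T cells, at 467 to 628 CPM, and macrophages or monocytes (104 to 186 CPM) and other T cells (90.0 to 185 CPM) followed with ranges that overlapped. In CD8 T cells it stood at 35.7 to 60.3 CPM. Within each library the CD4 level was above the CD8 level by 3.73, 3.13, 2.95 and 3.81 on the log2 scale. No Maf UMI was counted in plasma cells of the untreated and ADU-S100 libraries, and 5 were counted in each of the other two.

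Il21r was highest in CD8 T cells (197 to 243 CPM) and CD4 T cells (133 to 223 CPM), whose ranges overlapped. Dendritic cells at 129 to 159 CPM overlapped with CD4 T cells, as did other T cells at 95.6 to 148 CPM, whereas macrophages or monocytes (75.5 to 94.3 CPM) and NK cells (39.8 to 94.2 CPM) stood lower. Neutrophils were at 5.69 to 19.1 CPM with a UMI in 1.20 to 1.69% of cells, and whether these UMIs are free RNA was not tested.

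Sh2d1a separated T and NK cells from the other classes. NK cells (114 to 180.4 CPM), CD8 T cells (95.5 to 149.6 CPM), other T cells (83.2 to 121 CPM) and CD4 T cells (43.6 to 153 CPM) overlapped, whereas macrophages or monocytes stayed at or under 0.421 CPM with a UMI in 0.125 to 0.237% of cells at median depths of 3581 to 7909 UMIs. Tox2 had no UMI in NK cells of any library. In macrophages or monocytes it was read in 0.057 to 0.396% of cells, at 0.0742, 0.133, 0.790 and 0.883 CPM in the order untreated, ADU-S100, anti-LTβR and combination. These levels rest on 2, 5, 30 and 24 UMIs in those libraries.

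**Figure D1:**
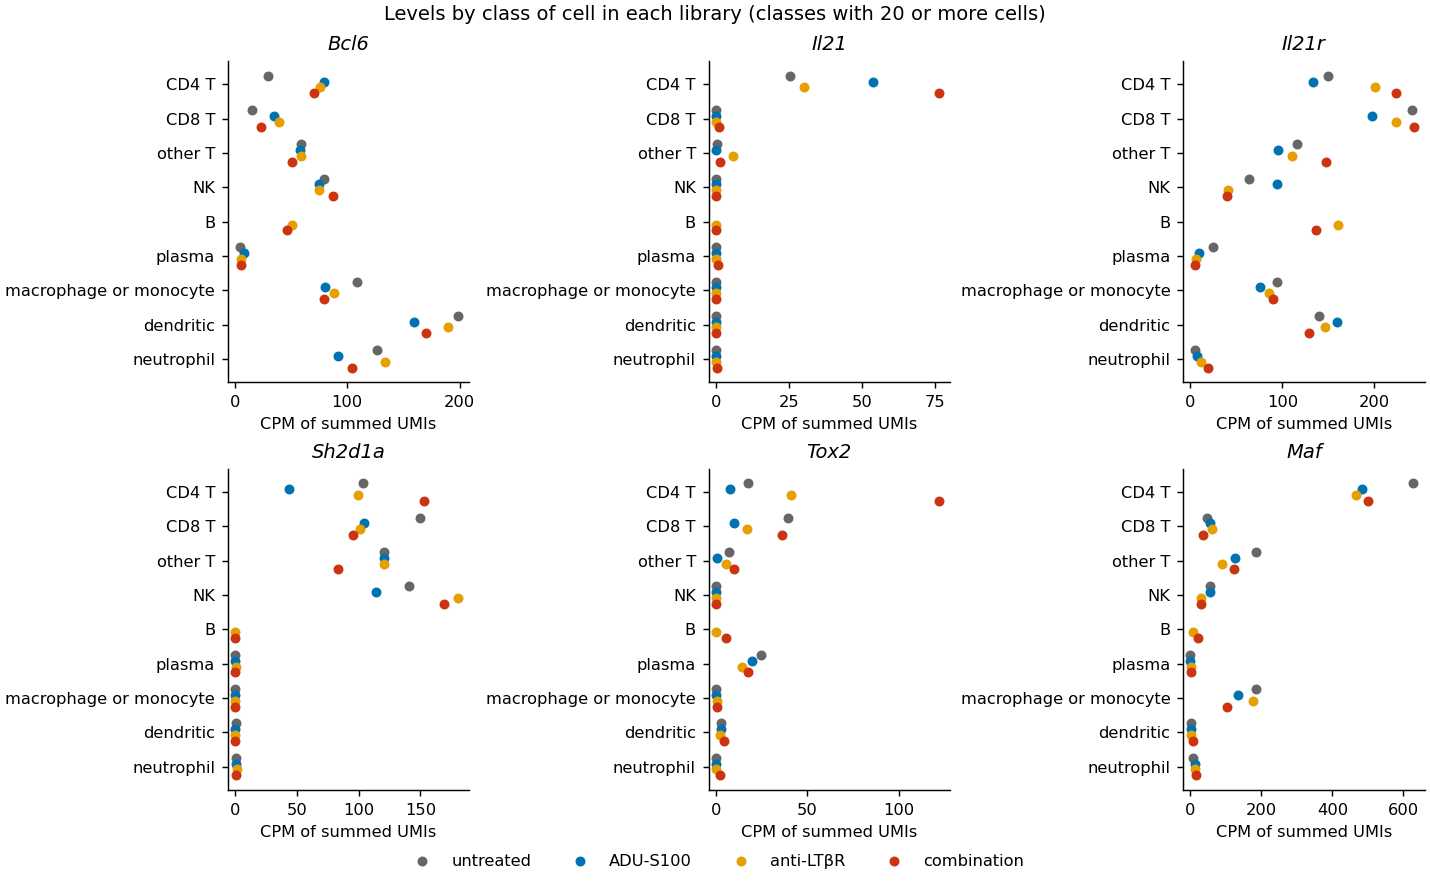
Level of each of the 6 genes (horizontal axis, CPM of summed UMIs) in each class of cells and each of the 4 libraries, where a class has 20 or more cells. Il21 stands out in CD4 T cells at 25.4 to 76.3 CPM, whereas Bcl6 is highest in dendritic cells at 159 to 199 CPM.

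Over all kept cells there were 219 Il21 UMIs in 73 cells. CD4 T cells were only 0.684 to 3.01% of kept cells and held 76.7, 84, 32.7 and 45% of the Il21 UMIs by library, or 105 in all. In CD8 T cells no Il21 UMI was counted in the untreated, ADU-S100 and anti-LTβR libraries (0 of 494, 199 and 651 cells, which by 3 counts allows up to 0.607, 1.51 and 0.461% of cells with a UMI and does not limit how many express the gene), and the CD4 level was at least 23.4-, 19.2- and 27.2-fold higher when CD8 cells were set at 3 counts per library. The combination library had 2 Il21 UMIs, both in 1 CD8 T cell. Neutrophils had 0, 2, 0 and 1 Il21 UMIs and macrophages or monocytes 2, 0, 1 and 0, in cells of median depth 1055 to 7909 UMIs.

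Over the 37 class sums with enough cells (10 classes in 4 libraries, which share their libraries), the genes whose level ran most like that of Il21 were 4 other T cell cytokines and a galectin. Pearson correlations of log2(CPM + 1) were 0.932 for Il2, 0.910 for Il13, 0.904 for Lgals7, 0.882 for Il4 and 0.844 for Il5. Il21 had more than 2 UMIs only in CD4 T cells without Foxp3 and in other T cells of anti-LTβR. These correlations therefore rest on few points. Il2 and Il21 are neighboring genes of a cytokine pair, transcribed in activated T cells after calcium signaling brings NFAT to the nucleus, and c-MAF is a known activator of Il21. The 250 bases before each start (RefSeq, GRCm38.p6, minus strand) are shown for these 2 genes because they ran most alike, with the NFAT core GGAAA (or its reverse complement TTTCC) and the MAF half-site TGCTGA (or TCAGCA) in capitals:

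Il21, chr3:37232637-37232886: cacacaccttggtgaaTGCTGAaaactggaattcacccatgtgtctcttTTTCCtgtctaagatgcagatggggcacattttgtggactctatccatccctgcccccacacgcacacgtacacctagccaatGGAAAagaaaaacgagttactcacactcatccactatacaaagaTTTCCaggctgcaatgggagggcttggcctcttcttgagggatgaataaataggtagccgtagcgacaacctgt

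Il2, chr3:37125955-37126204: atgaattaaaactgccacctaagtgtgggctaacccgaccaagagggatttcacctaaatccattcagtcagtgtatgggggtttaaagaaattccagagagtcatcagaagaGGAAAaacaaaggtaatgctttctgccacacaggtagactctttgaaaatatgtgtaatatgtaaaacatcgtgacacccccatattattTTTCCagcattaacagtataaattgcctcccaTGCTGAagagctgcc

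The Il21 window held the NFAT core 3 times, 201, 118 and 74 bases before the start, and the half-site once, at 234 bases. The Il2 window held the core 2 times, at 137 and 47 bases, and the half-site once, at 15 bases. The searched letters do not overlap each other. Of 32851 promoter windows of the same length, 55.566% had at least 1 NFAT core, 21.378% at least 2 and 6.392% at least 3, while 16.079% had the half-site and 8.949% had both. The windows of Bcl6, Il21r and Tox2 held 1, 0 and 0 cores and no half-site. These matches describe letters only, and binding was not measured.

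For the other genes the most similar patterns were as follows. Sh2d1a ran with Cd96 (0.982), Il2rb (0.973), Zap70 (0.970), Prkcq (0.968) and Gprin3 (0.964), which include signaling genes of T and NK cells. Tox2 ran with Dusp14 (0.904), Bcat1 (0.881), Dusp4 (0.853), Aplp1 (0.782) and Bdh1 (0.764). Maf ran with Tent5a (0.904), Itgav (0.900), Camta1 (0.889), Tmem50a (0.881) and Spacdr (0.880). Bcl6 ran with Med13l (0.905), Fes (0.898), Vav3 (0.893), Zfand3 (0.881) and Asap1 (0.869), and Il21r with Hsp90ab1 (0.917), Ntan1 (0.908), Hspa4 (0.907), Nono (0.906) and Thoc7 (0.904). The correlations are taken from 11467 genes, the points are not independent, and no p-value is given.

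The first comparison asked whether CD4 T cells of treated tumors carried more Tfh transcripts than those of untreated tumors. Bcl6, Il21 and Tox2 stood more than 2-fold higher with the combination than in untreated tumors, and Bcl6 was past 2-fold higher with each agonist, though with none once cells with a Foxp3 UMI were left out (0.99, 0.92 and 0.78 on the log2 scale). Maf was lower with each agonist, by less than 2-fold. A difference was called when it was past 2-fold and its counting interval left out equality, for genes with 20 or more UMIs over both libraries. By that rule 3 of 6 members were higher with the combination, where 2.41% of 7343 genes were called higher and 2.63% lower. With anti-LTβR 2 of 6 were higher, against 2.48% of 8550 genes higher and 1.74% lower. With ADU-S100 2 of the 5 members with enough UMIs were higher and 1 was lower, against 1.74% of 7344 genes higher and 3.13% lower. The study took members of this list as markers of Tfh cells in these samples, so these counts are not independent evidence of a direction.

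Bcl6 was counted at 27, 31, 85 and 25 UMIs in CD4 T cells, which gave 29.9 CPM (19.7 to 43.4), 79.5 CPM (54.0 to 113), 76.0 CPM (60.7 to 93.9) and 70.7 CPM (45.7 to 104). All 3 agonist libraries stood above the untreated one, with counting intervals that did not meet its own, and they did not stand apart from each other. Relative to untreated, ADU-S100 gave a log2 ratio of 1.41 (0.62 to 2.21), anti-LTβR one of 1.35 (0.71 to 2.03) and both agents one of 1.24 (0.40 to 2.08). A Bcl6 UMI was found in 8.55, 21.4, 17.5 and 10.5% of cells. After each cell was thinned to 1000 UMIs, which left 232, 97, 321 and 140 cells, these shares were 2.16, 7.22, 6.85 and 7.14%.

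Il21 was counted at 23, 21, 34 and 27 UMIs, which gave 25.4 CPM (16.1 to 38.2), 53.9 CPM (33.3 to 82.4), 30.4 CPM (21 to 42.5) and 76.3 CPM (50.3 to 111). The combination library was the highest, and its interval lay above those of the untreated and anti-LTβR libraries. Its log2 ratio to untreated was 1.59 (0.73 to 2.45), while ADU-S100 alone gave 1.08 (0.16 to 2.0) and anti-LTβR alone 0.26 (−0.55 to 1.09). Against anti-LTβR alone the combination stood 1.33 higher (0.54 to 2.10), and against ADU-S100 alone 0.50 higher (−0.37 to 1.40), an interval that includes equality. Most Il21 UMIs of both these libraries lay outside the CD4 T cells, and over all kept cells the levels were 1.19 CPM (0.911 to 1.54) with the combination and 1.52 CPM (1.25 to 1.85) with anti-LTβR, intervals that overlap. Of the 104 UMIs with anti-LTβR 25 were in 1 cell of no class and 19 in 1 other T cell, and without the 2 cells with most Il21 in each library the levels were 0.855 and 0.879 CPM, a setting added after the data were seen. These counts came from few cells, which numbered 8, 4, 12 and 8, and the single cell with most Il21 held 34.8, 38.1, 38.2 and 37.0% of the UMIs. Without that cell in each library the ADU-S100 ratio was 1.02 (−0.17 to 2.19), so the call rested on 1 cell, and the combination ratio was 1.54 (0.45 to 2.64). The share of cells with an Il21 UMI was 3.42, 4.08, 3.61 and 5.26%, and 1.29, 4.12, 0.935 and 4.29% after thinning.

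Tox2 differed most. It was counted at 16, 3, 46 and 43 UMIs, which gave 17.7 CPM (10.1 to 28.7), 7.70 CPM (1.59 to 22.5), 41.1 CPM (30.1 to 54.8) and 122 CPM (88.0 to 164). Both libraries that received anti-LTβR stood above both that did not, and the combination stood above anti-LTβR alone. On the log2 scale the combination was 2.78 (1.92 to 3.71) above untreated and anti-LTβR alone 1.22 (0.37 to 2.14). The ratio of ADU-S100 to untreated, −1.20 (−3.62 to 0.60), rests on 19 UMIs and was not called. The combination was 3.98 (2.34 to 6.31) above ADU-S100 alone and 1.56 (0.93 to 2.20) above anti-LTβR alone. Cells with a Tox2 UMI made up 5.98, 3.06, 6.93 and 12.5% of CD4 T cells. After thinning the combination again had the largest share, at 1.29, 0, 2.80 and 7.86% (0 of 97 cells with ADU-S100).

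Sh2d1a, the gene of the adaptor SAP, was counted at 94, 17, 111 and 54 UMIs, or 104, 43.6, 99.2 and 153 CPM. It was lowest with ADU-S100 alone and highest with the combination, while the untreated and anti-LTβR libraries were alike. Set against untreated on the log2 scale, ADU-S100 gave −1.25 (−2.09 to −0.50), anti-LTβR alone −0.07 (−0.48 to 0.34) and both agents 0.55 (0.04 to 1.05), and the combination stood 1.81 (1.00 to 2.69) above ADU-S100 alone.

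Il21r, the receptor gene, was counted at 135, 52, 224 and 79 UMIs, or 149, 133, 200.2 and 223 CPM. Log2 ratios for the 3 agonist libraries were −0.16 (−0.65 to 0.31), 0.42 (0.11 to 0.74) and, last, 0.58 (0.16 to 0.99), so both libraries with anti-LTβR stood higher by less than 2-fold. Maf was counted at 568, 188, 522 and 177 UMIs, or 628, 482, 467 and 500.3 CPM, and the untreated library was the highest. Its ratios were −0.38 (−0.63 to −0.14), −0.43 (−0.60 to −0.25) and −0.33 (−0.58 to −0.08).

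**Figure D2:**
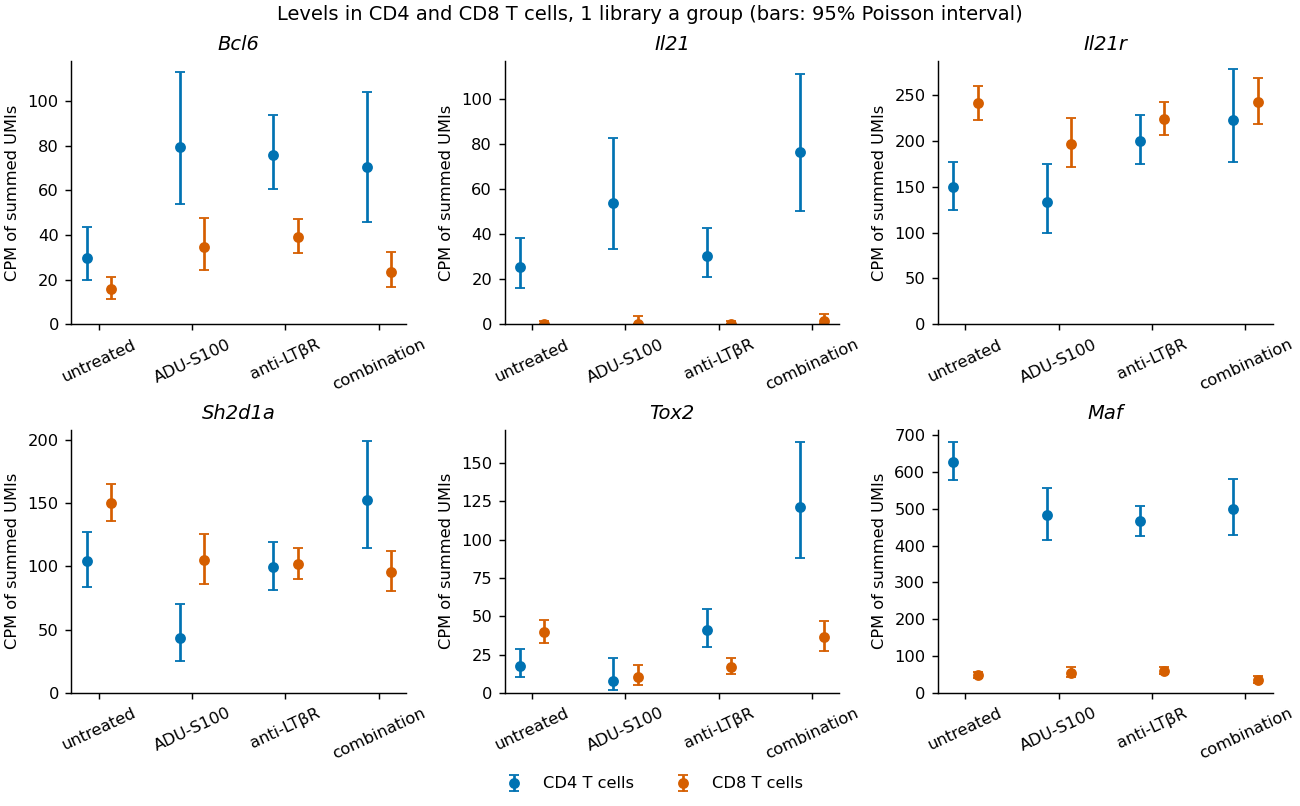
Levels of the 6 genes (CPM of summed UMIs with 95% Poisson intervals, which cover counting error only) in CD4 and CD8 T cells of the 4 libraries. Tox2 in CD4 T cells goes from 17.7 CPM in the untreated to 122 CPM in the combination library, while in CD8 T cells it is at 39.5 and 36.3 CPM.

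**Figure D3:**
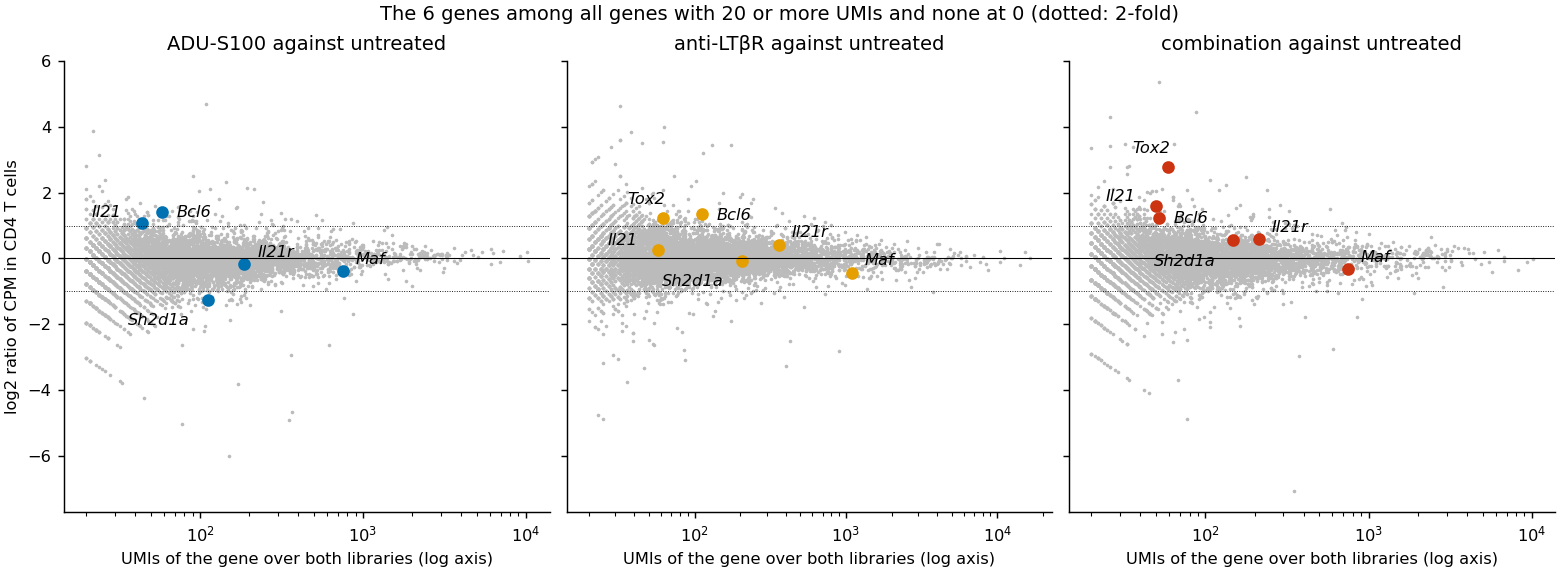
Log2 ratio of each agonist library to the untreated one in CD4 T cells (vertical axis) against the UMIs of the gene over both libraries (horizontal log axis), 1 grey point per gene with 20 or more UMIs and none at 0, with the members tested in color and dotted lines at 2-fold. With the combination Tox2 (2.78), Il21 (1.59) and Bcl6 (1.24) lie above the upper line, among the 2.41% of genes called higher.

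CD4 T cells hold regulatory T cells, marked by Foxp3, and their share moved with the groups. A Foxp3 UMI was found in 34.6, 27.6, 15.1 and 11.8% of CD4 T cells, or 81, 27, 50 and 18 cells, and the Foxp3 level was 406, 318, 146 and 119 CPM. The log2 ratios of Foxp3 to untreated were −0.35, −1.48 and −1.77. The members were therefore read in both kinds of cell, with the 4 libraries summed to 176 cells with and 640 without Foxp3. A cell with no Foxp3 UMI can still be a regulatory T cell. Median depths were 3966, 3517, 3128 and 1911 UMIs in Foxp3+ and 3127, 3714, 2861 and 2009 UMIs in Foxp3- cells.

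Il21 had no UMI in the 176 Foxp3+ cells (which by 3 counts allows up to 1.70% of cells with a UMI) and 105 UMIs in 32 of the 640 Foxp3- cells, a level at least 13.8-fold higher when the Foxp3+ cells were set at 3 counts over the 4 libraries. Bcl6 stood at 25.6 CPM in Foxp3+ and 74.5 CPM in Foxp3- cells, a log2 ratio of −1.54 (−2.29 to −0.86). Within the 4 libraries the Bcl6 ratio was −2.51, −0.62, −1.26 and −1.87, below 0 in each, but the interval included equality with ADU-S100 (−1.99 to 0.59) and with the combination (−7.23 to 0.75, 1 UMI in Foxp3+ cells). Sh2d1a stood at 58.9 and 116 CPM (−0.98, −1.46 to −0.51), and its ratio was −0.40, −2.00, −1.68 and −1.37 by library, with an interval that left out equality for anti-LTβR (−2.93 to −0.64) and included it in the untreated (−1.05 to 0.24), ADU-S100 (−5.17 to 0.10) and combination (−3.69 to 0.26) libraries.

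Tox2 stood at 12.8 CPM in Foxp3+ and 49.3 CPM in Foxp3- cells (−1.95, −3.05 to −1.01), but this did not hold in each library. In the untreated library the levels were 16 and 18.9 CPM (6 and 10 UMIs), and with ADU-S100 there were 2 and 1 UMIs. The separation came from the libraries with anti-LTβR, where Tox2 had 2 UMIs in Foxp3+ and 44 in Foxp3- cells with the antibody alone (−2.45, −5.54 to −0.51) and 0 and 43 with the combination.

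Maf went the other way, at 850.3 CPM in Foxp3+ and 398 CPM in Foxp3- cells (1.09, 0.94 to 1.24), and it did so within each library by 0.74, 1.31, 1.29 and 1.41. Il21r stood at 173 and 179 CPM, within counting error (−0.05, −0.35 to 0.24). Il10, a cytokine gene that c-MAF is known to activate, was also higher in Foxp3+ cells, by 1.24. Within the libraries its ratios were 0.53, 2.41, 1.33 and 3.49, and the untreated interval (−0.20 to 1.27) included equality.

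**Figure D4:**
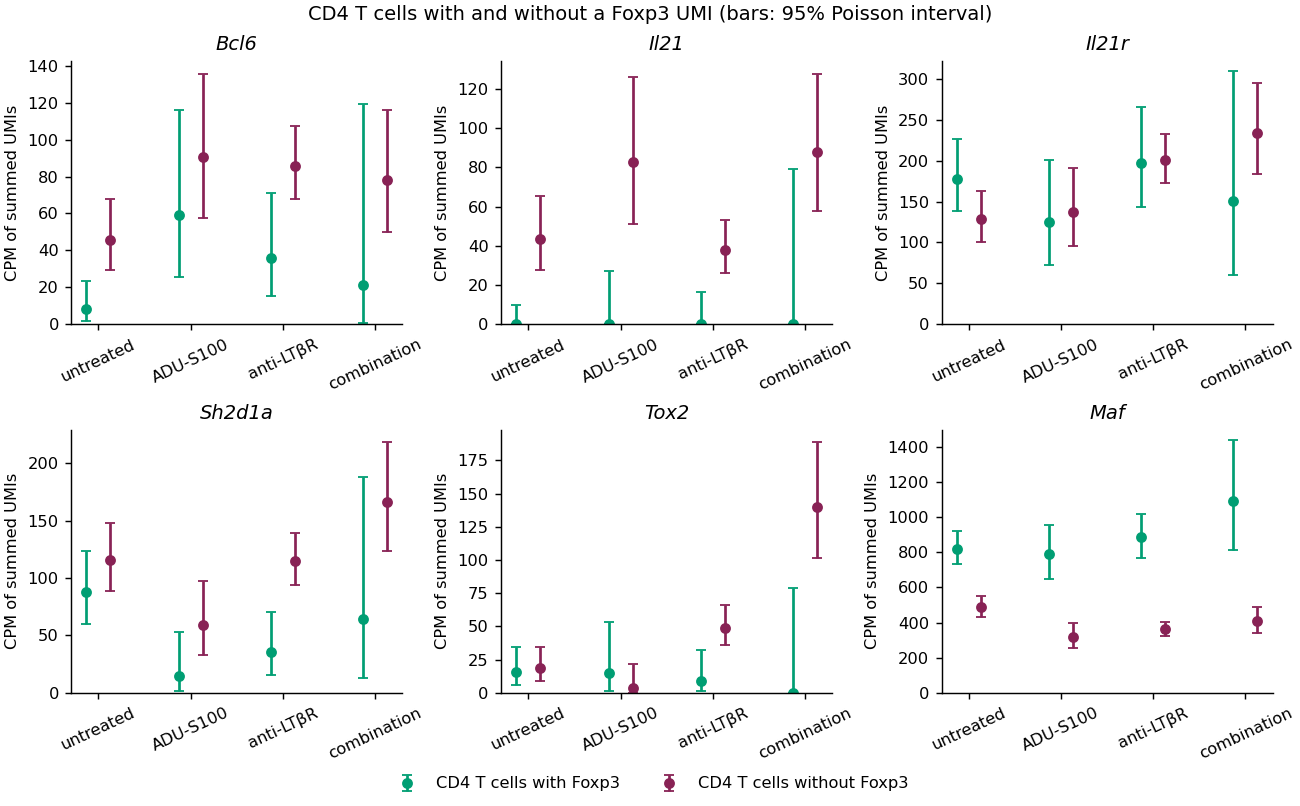
Levels of the 6 genes (CPM of summed UMIs with 95% Poisson intervals) in CD4 T cells with and without a Foxp3 UMI in each of the 4 libraries. Maf is higher in Foxp3+ cells of every library, Bcl6 is lower there past counting error in the untreated and anti-LTβR libraries and Sh2d1a in the anti-LTβR library, Il21 has no UMI there, and Tox2 is lower there with anti-LTβR (9.0 against 49.1 CPM) and the combination (0 against 140.0 CPM).

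Within Foxp3- cells alone (153, 71, 282 and 134 cells) the ratios of Bcl6 to untreated were 0.99 (0.10 to 1.88), 0.92 (0.24 to 1.65) and 0.78 (−0.10 to 1.66), each smaller than in all CD4 T cells and none past 2-fold. Il21 stood at 0.92 with ADU-S100 alone, where the lower end of the interval just reached equality, −0.20 with anti-LTβR alone and 1.01 (0.16 to 1.88) with both agents. Tox2 was as far apart as before, where anti-LTβR alone gave 1.37 (0.36 to 2.53) and both agents gave 2.89 (1.87 to 4.04). Maf stood at −0.62, −0.44 and −0.26 (−0.58 to 0.06), and Sh2d1a at −0.97, −0.01 and 0.52 (−0.04 to 1.08), where the last interval of each includes equality. In Foxp3- cells the members called higher were thus 0 with ADU-S100, 1 with anti-LTβR and 2 with the combination, against 2.04, 2.13 and 2.37% of all genes tested there. None was called lower, against 4.26, 1.75 and 2.55% of those genes.

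The 32 CD4 T cells with an Il21 UMI, all Foxp3-, were compared with the other 784 by what else was read in the same cell. Pdcd1, which encodes the inhibitory receptor PD-1, was found in 71.9% of them against 32.1% of the rest. Cd40lg, the T cell ligand that drives B cell activation, was found in 53.1 against 24.6%, and Cxcr5, the chemokine receptor that leads cells to follicles, in 15.6 against 3.06%. Of the members, Maf was found in 68.8 against 54.1%, Il21r in 53.1 against 34.8%, Sh2d1a in 46.9 against 21.7%, Bcl6 in 34.4 against 13.3% and Tox2 in 18.8 against 6.76%. Each was found more often in Il21+ cells, which were also deeper, at a median of 3783 UMIs against 2808.5 in other Foxp3- cells. Depth is taken out in the levels that follow.

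As levels within Foxp3- cells, Bcl6 stood at 177 CPM in the 32 Il21+ cells and 67.0 CPM in the 608 others (log2 ratio 1.40, 0.70 to 2.04). Sh2d1a stood at 250.5 against 106 CPM (1.24), Tox2 at 140.0 against 42.7 CPM (1.71) and Maf at 619 against 382 CPM (0.70). On this scale Il21r was at −0.02 (−0.68 to 0.58) and Cd40lg at 0.27 (−0.27 to 0.77), intervals that include equality, while Pdcd1 was 0.49 higher (0.04 to 0.91). Within the libraries Sh2d1a was 0.90, 1.09, 0.96 and 1.98 higher and Maf 0.49, 0.60, 0.16 and 1.87 higher. The intervals left out equality only in the combination library, for Sh2d1a (0.91 to 2.94) and for Maf (1.21 to 2.49). For Bcl6 the values were 1.04, −0.67, 1.16 and 2.94, where the ADU-S100 library had a single Bcl6 UMI in its 4 Il21+ cells. The combination library had the widest gaps, as its 8 Il21+ cells held 9 Bcl6, 10 Tox2 and 12 Sh2d1a UMIs, or 405, 450.2 and 540.3 CPM, against 52.6, 116 and 137 CPM in its other Foxp3- cells. Of those 10 Tox2 UMIs 8 were in 1 cell and the rest in another, and over the 4 libraries 6 of the 32 Il21+ cells held all 19 Tox2 UMIs.

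Among other Tfh genes Cd200 was 2.20 higher, Tox 1.63 higher (1.95, 1.83, 1.70 and 0.89 by library) and Sostdc1 4.35 higher on 12 against 8 UMIs, while Icos was at −0.38. By library Cd200 was at 0.94, 5.37, 2.58 and 0.68, where the untreated and combination intervals include equality. With ADU-S100 it had 3 against 1 UMIs, and 16 of its 23 UMIs in Il21+ cells came from anti-LTβR. Lower in the Il21+ cells were Il7r (−1.26), Lef1 (−1.41) and Foxp1 (−1.28), but Tcf7 stood at −0.21 (−0.69 to 0.23) and Ccr7 was higher (0.69, 0.01 to 1.30). These genes were chosen after their values were seen. Klf2 had no UMI in the 32 Il21+ cells against 496 UMIs in the other Foxp3- cells, a level at least 12.1-fold lower when the Il21+ cells were set at 3 counts over the 4 libraries. S1pr1, a target of KLF2 and the receptor by which T cells leave tissue, had 1 against 410 UMIs (−4.91, −10.22 to −2.42).

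Other cytokine transcripts were read in some Il21+ cells. Ifng, the Th1 cytokine gene, was found in 6 of 8, 0 of 4, 4 of 12 and 1 of 8 Il21+ cells by library. Il4, which both Th2 and Tfh cells make, was found in 3 cells, all of anti-LTβR, and no cell had both. Of the 32 cells 12 had a single Il21 UMI, so a transcript that was not read may still have been there. Bcl6, Tox2 or Cxcr5 was read in 14 of the 32, and only 1 cell had both Bcl6 and Ifng. Of the Il4 UMIs in these cells 128 came from 2 cells. Ifng was added to the genes read here after its values were seen.

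**Figure D5:**
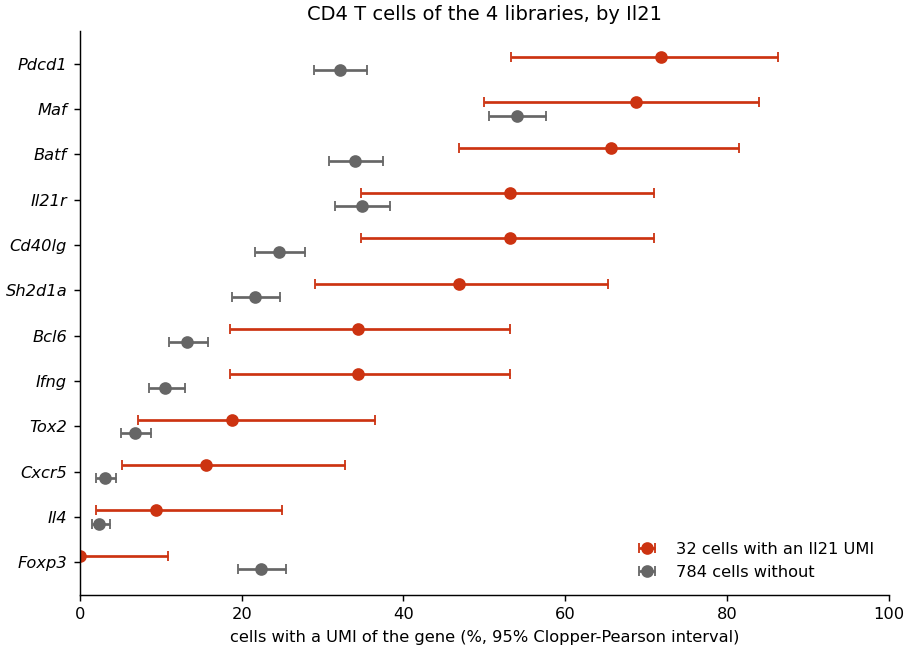
Share of CD4 T cells (percent, with exact 95% intervals for counting error) in which a gene had at least 1 UMI, for the 32 cells with an Il21 UMI and the 784 without. Pdcd1 is found in 71.9 against 32.1%, Bcl6 in 34.4 against 13.3% and Foxp3 in 0 against 22.4%.

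Cells with the full set of Tfh transcripts were rare at this depth. Of 816 CD4 T cells, 115 had a Bcl6 UMI, 11 had Bcl6 and Cxcr5, and 7 had Bcl6, Cxcr5 and Pdcd1 (1, 2, 3 and 1 by library). Cxcr5 was found in 9.57% of Bcl6+ and 2.57% of Bcl6- cells, whose median depths were 3687 and 2868 UMIs. Per UMI it stood at 35.6 and 10.8 CPM (log2 ratio 1.72, 0.72 to 2.68). Bcl6 was found with Pdcd1 in 57 cells. Bcl6 and Il21 were found together in 11 cells and with Tox2 in 4. Sh2d1a was found in 49.2% of the 59 Tox2+ cells and 20.6% of the rest, at median depths of 3657 and 2917 UMIs. Its level there was 252 against 84.6 CPM (1.57, 1.14 to 1.98). All 6 members were read in 3 cells, 2 of anti-LTβR and 1 of the combination, and none in 173 cells. Cells with 3 or more members were 13.2, 8.16, 13.9 and 12.5% of CD4 T cells, but the combination had the shallowest cells. After thinning to 1000 UMIs the cells with 3 or more members were 1 of 232, 2 of 97, 10 of 321 and 8 of 140, or 0.431% (0.0109 to 2.38), 2.06% (0.251 to 7.25), 3.12% (1.5 to 5.65) and 5.71% (2.50 to 10.9), highest with the combination. This thinned count was added after the unthinned one was seen.

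Most other genes of the Tfh programme were not called in either direction. Of the tested genes of a list of 28, 0 were called higher and 3 lower of 22 with ADU-S100, where 1.74% of all genes were called higher and 3.13% lower (median log2 ratio 0.28, all genes −0.08). With anti-LTβR 1 was higher and 0 lower of 24, against 2.48 and 1.74% of all genes (0.12, all genes 0.01). With the combination 3 were higher and 1 lower of 22, against 2.41 and 2.63% of all genes (0.31, all genes −0.02). With the combination the 3 higher were Lef1 (1.51), a transcription factor of naive and Tfh cells, Slamf6 (1.27), a SLAM receptor that signals through SAP, and Tnfsf8 (1.09), the ligand of CD30. Rgs16, a regulator of chemokine receptor signals, was lower at −1.17, and at −1.41 with ADU-S100. ADU-S100 also had lower Cd200 (−1.75) and P2rx7 (−2.64), an ATP receptor that limits Tfh cell numbers.

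Cxcr5 itself was counted at only 13, 4, 19 and 5 UMIs in CD4 T cells, or 14.4, 10.3, 17 and 14.1 CPM. Its log2 ratios to untreated were −0.49, 0.24 and −0.02, with intervals that include equality. In Foxp3- cells it stood at 3.79, 7.87, 15.6 and 16.3 CPM on 2, 2, 14 and 5 UMIs. In Foxp3+ cells it stood at 29.2, 14.7, 22.5 and 0 CPM. Pdcd1 stood at 264, 249, 192 and 240.2 CPM (log2 ratios −0.09, −0.46 and −0.14), and Icos, the costimulatory receptor that sustains Tfh cells, at 1255, 1534, 1024 and 986 CPM (0.29, −0.29 and −0.35). With anti-LTβR the gene called higher was Il4 (3.45), on 162 against 12 UMIs, of which 93 were in 1 cell.

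Of 15 genes that oppose the Tfh fate or are low in Tfh cells, 1 was called higher and 1 lower with ADU-S100, 1 and 1 with anti-LTβR, and 0 with the combination, with medians of 0.25, 0.12 and 0.16. Over all genes tested 1.74, 2.48 and 2.41% were called higher and 3.13, 1.74 and 2.63% lower, with medians of −0.08, 0.01 and −0.02, and the counts below are to be read against the same shares. Klf2, which keeps T cells in circulation and represses the Tfh fate, was higher with ADU-S100 (1.35) and anti-LTβR (1.15). Ccr7, the lymph node homing receptor, was lower with ADU-S100 (−1.43). Downstream of the receptor, Socs3 (1.03 with the combination), a feedback inhibitor induced by STAT3, was the 1 gene of 8 called in any group. Among 6 tested SLAM and SAP family genes Slamf6 was the only call. In Foxp3- cells alone, 1, 1 and 3 of the 15 genes that oppose the Tfh fate were called higher and 2, 0 and 0 lower. Of 22, 23 and 22 tested genes of the Tfh list, 1, 1 and 4 were called higher there and 2, 0 and 1 lower. Over all genes tested in these cells 2.04, 2.13 and 2.37% were called higher and 4.26, 1.75 and 2.55% lower.

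In the regulatory T cell list of 7 genes the medians were −0.33, −0.88 and −0.83. Foxp3 and Ctla4 (−1.02) were lower with anti-LTβR, and Foxp3 and Ikzf2 (−1.04), the gene of Helios, with the combination. Cd86, a costimulatory ligand from the germinal center list that is a gene of antigen-presenting cells, was lower in CD4 T cells of each agonist library, at −2.22, −1.58 and −1.92, while the summed macrophage markers in these cells stood at 53.1, 61.6, 45.6 and 82.0 CPM in the 4 libraries.

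The second comparison asked the same of CD8 T cells, which are known as targets of IL-21. Bcl6 was higher with either agonist alone, Tox2 was lower with either agonist alone, and with the combination no member passed the rule. Called members were 1 higher and 1 lower of 5 with ADU-S100 (2.26% of 9786 genes called higher, 3.1% lower), 1 and 1 of 5 with anti-LTβR (3.58% of 10466 genes higher, 2% lower) and 0 of 5 with the combination (3.71% of 10098 genes higher, 2.19% lower).

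In CD8 T cells Bcl6 was counted at 43, 37, 105 and 37 UMIs, or 15.6, 34.5, 39.1 and 23.6 CPM. Set against untreated, ADU-S100 gave a log2 ratio of 1.15 (0.47 to 1.82), anti-LTβR alone 1.33 (0.80 to 1.87) and both agents 0.60 (−0.08 to 1.26). When T cells with any UMI of B cell, macrophage or NK cell markers were left out, the ADU-S100 ratio was 1.83 (0.49 to 3.24). Bcl6 was lower in CD8 than in CD4 T cells of every library, by 0.94, 1.20, 0.96 and 1.58 on the log2 scale.

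Tox2 in CD8 T cells was counted at 109, 11, 46 and 57 UMIs, or 39.5, 10.3, 17.1 and 36.3 CPM. The untreated and combination libraries were alike, and both stood above the single agonists. Log2 ratios of the 3 agonist libraries were −1.94 (−2.99 to −1.05), −1.21 (−1.74 to −0.70) and −0.12. The CD4 level over the CD8 level in the same library was −1.16, −0.42, 1.26 and 1.74, so Tox2 was the higher in CD8 T cells of untreated tumors and the higher in CD4 T cells of both libraries with anti-LTβR.

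Il21r in CD8 T cells stood within 2-fold in all libraries, at 241, 197, 224 and 243 CPM with ratios of −0.29, −0.11 and 0.01. Sh2d1a was highest in untreated tumors, at 149.6, 105, 102 and 95.5 CPM, and its ratios were −0.52, −0.56 and −0.65 (−0.93 to −0.37 for the combination). Maf stood at 47.5, 55.1, 60.3 and 35.7 CPM with ratios of 0.21, 0.34 and −0.41. T cells with any B cell, macrophage or NK cell marker UMI were then left out. The Maf ratio of ADU-S100 in CD8 T cells turned to −1.53 (−2.72 to −0.52), and Tox2 with the combination was −0.85. NK cell markers stood at 255, 259, 261 and 224 CPM in CD8 T cells, with a median of 1 UMI per cell in the untreated library. This gate thus keeps a subset of the CD8 T cells, and how that subset differs from the rest was not tested.

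The wider lists were read in CD8 T cells too. Of 15 genes that are low in Tfh cells, 7, 6 and 5 were called higher in CD8 T cells of the 3 agonist libraries and none lower, where 2.26, 3.58 and 3.71% of all genes were called higher, and the medians were 0.62, 0.74 and 0.35 against −0.07, 0.01 and −0.04 over all genes. Klf2 (2.23, 2.24 and 2.27) and Ccr7 (2.07, 1.03 and 1.81) were higher in all of these. Of the Tfh list, 5, 8 and 6 of 21, 23 and 22 genes were called higher and 2, 1 and 0 lower, against the same shares higher and 3.1, 2 and 2.19% lower over all genes, with medians of 0.16, 0.09 and 0.10.

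Cxcr5 was among them, counted at 18, 29, 59 and 60 UMIs in CD8 T cells, or 6.52, 27.1, 21.9 and 38.2 CPM. Every agonist library was higher, ADU-S100 by 2.05 (1.16 to 2.99), anti-LTβR alone by 1.75 (0.97 to 2.60) and both agents by 2.55 (1.77 to 3.40). Tcf7, the transcription factor gene of naive, stem-like and Tfh cells, was higher by 1.43, 1.94 and 1.94, while Tox, which marks exhausted CD8 T cells, was lower at −1.51 and −1.05 with the single agonists and stood at −0.59 (−0.67 to −0.51) with the combination. The CD8 genes named here were chosen after their values were seen.

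The last comparison asked where the receptor of IL-21 lay among B lineage cells. B cells carried Il21r and Bcl6, while the other 4 genes had few or no UMIs. Il21r was counted at 41 UMIs in 28 of 82 B cells with anti-LTβR, or 160.4 CPM (115 to 218), and at 50 UMIs in 39 of 176 B cells with the combination, or 137 CPM (101 to 180.1), levels that their intervals do not separate. Bcl6 was counted at 13 and 17 UMIs (50.8 and 46.4 CPM). Tox2 had 0 and 2 UMIs and Maf 2 and 8, while Sh2d1a and Il21 had none. In the 6 and 4 B cells of the untreated and ADU-S100 libraries there were 1 and 4 Il21r UMIs and 1 and 1 Bcl6 UMIs, too few for a level.

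Of the genes of germinal center B cells, where Bcl6 also acts, the B cells of the anti-LTβR and combination libraries had 2 and 0 UMIs of S1pr2 and 2 and 5 of Mef2b. Mki67, a gene of dividing cells, had 23 and 61 UMIs.

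Plasma cells had less Il21r. It stood at 24.8, 9.19, 5.94 and 5.51 CPM on 15, 7, 18 and 17 UMIs, and the untreated level came from 7 cells. Immunoglobulin transcripts took 51.7, 51.6, 47.2 and 48.4% of plasma cell UMIs, and with these left out Il21r stood at 51.4, 19.0, 11.3 and 10.7 CPM. On that scale B cells were above plasma cells by 3.88 (3.05 to 4.77) in the anti-LTβR library and 3.80 (2.98 to 4.68) where both agents were given, although plasma cells were there no higher than neutrophils (11.8 and 19.1 CPM), and Bcl6 by 2.30 and 2.16.

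Tox2 was the member read most steadily in plasma cells, at 15, 15, 44 and 54 UMIs in 8, 9, 31 and 33 cells. Its level was 24.8, 19.7, 14.5 and 17.5 CPM, or 51.4, 40.7, 27.5 and 33.9 CPM without immunoglobulin transcripts, highest in the untreated library. Bcl6 stood at 4.96, 7.88, 5.61 and 5.83 CPM. Plasma cells could carry B cell transcripts under the marker rule, and Ms4a1, the gene of CD20, had 17, 33, 262 and 222 UMIs in them.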

How the data were processed

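The deposited matrices hold UMI counts per gene and cell, with no normalization, from Cell Ranger (8.0.1 per the file headers, 7.1.0 in the submitters' processing notes, which name mm10). The kit was GEM-X 5′ per the labels and an earlier one in the methods. The study had 2 experiments, and the first was not analysed here. Of 33696 feature identifiers, 31961 were found in GENCODE M21, so no coordinates were taken for features.

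Cells with 300 to 5000 genes and at most 6% mitochondrial UMIs, the limits of the methods, were kept. T cells had at least 2 UMIs of Cd3d, Cd3e, Cd3g, Trac, Trbc1 and Trbc2. CD4 cells had Cd4 UMIs without Cd8a and Cd8b1, and CD8 cells had Cd8a or Cd8b1 without Cd4. B cells had at least 2 UMIs of B cell markers, among them Ms4a1, Cd79a, Cd79b and Pax5, and plasma cells at least 2 of Mzb1, Derl3 and Tnfrsf17. NK (2), dendritic (3), macrophage or monocyte (4) and neutrophil (4) cells were set likewise. Cells with more than 1 T, B or plasma cell UMI or more than 2 myeloid UMIs of another class were left out. Plasma cells could carry B cell genes, and of the dendritic markers only Siglech was limited in them. Dendritic markers were not limited in macrophages or monocytes and neutrophils, nor NK cell markers in T cells. How many mixed doublets these limits removed was not measured. No doublet caller was run. Between 2031 and 5340 cells per library stayed in no class. Marker genes were fixed in a design, UMI minimums were set after depth was seen, and no member decided a class. The classes differ from the authors' own names. The members and lists were chosen with earlier results of these data known. A few listed genes are left out of the text.

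CPM were UMIs summed over a class, per 1000000 UMIs of that class. Ratios carry exact Clopper-Pearson and levels exact Poisson 95% intervals. A ratio was called past 2-fold with an interval that left out equality, at 20 or more UMIs. Named genes were the 6 members, Cxcr5, Pdcd1, Icos, Foxp3, list genes called in CD4 T cells and, per member, the 5 genes with the highest Pearson correlation of log2(CPM + 1) over class sums of 20 or more cells, among genes with 200 or more UMIs. With 1 library per group no test was run. The ratio step was tested on simulated data. Alternatives were other gates, scalings, weights of cells, thinning to 1000 UMIs and UMI minimums. Python 3.11.15, numpy 2.4.6, scipy 1.17.1, pandas 2.3.3 and matplotlib 3.10.9 were used.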

Additional observations from a re-analysis of the deposited data

Results flagged for a closer look

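For 3 members the ratio to untreated had opposite signs in CD4 and CD8 T cells of the same library, each with a counting interval that left out equality, and the difference between the classes was not tested over replicates. Sh2d1a with the combination was at 0.55 in CD4 and −0.65 in CD8 T cells on the log2 scale, and in CD4 T cells without Foxp3 it was at 0.52 with an interval that includes equality (−0.04 to 1.08). Tox2 with anti-LTβR was at 1.22 in CD4 and −1.21 in CD8 T cells. Maf with anti-LTβR was at −0.43 in CD4 and 0.34 in CD8 T cells.

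Cells that fell in no class held Il21 as well. They had 47 UMIs in 11 cells with anti-LTβR and 26 UMIs in 10 cells with the combination, against 4 UMIs in 3 cells of the untreated library. One anti-LTβR cell held 25 of these UMIs, with 1 UMI of the T cell markers and 1 of Cd4. Of the 26 such cells in the 4 libraries, 17 had a T cell marker UMI, 13 were over a limit on markers of a second class, and 10 had T cell marker and Cd4 UMIs with no Cd8 UMI.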

How the results depend on the processing

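With 1 library per group, counting error is the only error shown, and the CD4 levels of Il21 rest on 105 UMIs in 32 cells. No paired analysis was possible because each group has 1 library. Of the recomputed log2 ratios between groups, 269 stayed within the reported value's counting interval, 8 moved past it and 2 whose interval had left out equality reversed. Where the reported interval included equality, 12 changed sign within it and 2, both Maf in CD8 T cells with ADU-S100, changed sign past it. Scaling shifted the median of all genes by −0.07 to 0.03. Leaving out cells with any B cell, macrophage or NK cell marker UMI moved the CD8 ratios of ADU-S100 to 1.83 for Bcl6, −0.72 for Il21r, −0.17 for Sh2d1a and −1.53 for Maf, with 2 members called lower, and Tox2 with the combination to −0.85. NK cell markers stood at 224 to 261 CPM in CD8 T cells, so that gate keeps only a subset of them. The mean of each cell's own CPM put Maf with ADU-S100 in CD8 T cells at −0.33. Without the cell with most UMIs of each gene, 1 member was called higher in CD4 T cells with ADU-S100. At a minimum of 1 UMI, 560 genes passed 2-fold in CD4 T cells with the combination, against 370. Without immunoglobulin genes in the total, plasma cell levels were 51.4, 11.3 and 10.7 CPM for Il21r (untreated, anti-LTβR, combination), 51.4, 40.7, 27.5 and 33.9 CPM for Tox2, and 10.6 and 11.3 CPM for Bcl6 (anti-LTβR, combination). Thinning moved 60 shares past their interval and left 7 within it.

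The following were chosen after seeing the data. Thinning put the share of CD4 T cells with 3 or more members at 0.431, 2.06, 3.12 and 5.71%, against 13.2, 8.16, 13.9 and 12.5% (order as in the report). In Foxp3- cells alone 0 members were called higher and 0 lower with ADU-S100, 1 higher with anti-LTβR and 2 higher with the combination, against 2.04, 2.13 and 2.37% of all genes called higher there. Taken over all kept cells, the Il21 ratio was −0.93 (−1.75 to −0.11) for ADU-S100, the reverse of that in CD4 T cells. CD4 T cells were 0.684% of that library against 3.01% of the untreated one, and whether this accounts for the reversal was not tested. Without the 2 cells with most Il21 UMIs of each library the Il21 ratio for ADU-S100 was −1.67. For anti-LTβR it was 1.25, or 1.19 without those cells, and the cells of no class, with 47 of its 104 UMIs, enter there.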

Other observations

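T cells with neither or both of the Cd4 and Cd8 transcripts held 1, 0, 22 and 2 Il21 UMIs in untreated tumors and in the ADU-S100, anti-LTβR and combination libraries. Of the 22 with anti-LTβR, 19 were in 1 cell. Over all kept cells Il21 stood at 0.641, 0.337, 1.52 and 1.19 CPM.

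Cxcr5 was also read in regulatory T cells. Over the 4 libraries it had 18 UMIs in the 176 CD4 T cells with Foxp3 and 23 in the 640 without, a log2 ratio of 0.99 (0.02 to 1.95). The untreated library held 11 and 2 of these UMIs and anti-LTβR 5 and 14. Only in the untreated library did the interval leave out equality (2.95, 0.75 to 6.16), and with anti-LTβR the ratio was 0.52 (−1.30 to 2.08). Against Foxp3- cells, Pdcd1 in Foxp3+ cells stood at −1.08 and Tcf7 at −4.48.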
